A study of Sus scrofa domesticus with 4 samples.

Results

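Enzymes and carriers that make, convert or conjugate steroids were examined in cultured slices of pig myometrium, which is the muscular wall of the uterus, with or without added adiponectin, a hormone of fat tissue. The 10 genes were STAR, CYP11A1, HSD3B1, HSD17B1, HSD17B4, HSD11B1, HSD11B2, SULT1E1, SULT2A1 and POR. They were taken by the RefSeq accession of their probes, which gave 28 of the 43603 probes on the array and 10 of the 3029 genes that could be named. The tissue came from Large White x Polish Landrace gilts aged 7 to 8 months, weighing 120 to 130 kg, and pregnant for 15 to 16 days. After 2 h of preincubation, slices of 100 mg in 2 ml of medium received adiponectin at 10 µg/ml (treated) or no addition (untreated) for 24 h. The 4 two-colour Agilent arrays each carried 1 treated and 1 untreated RNA, and treated RNA was labelled with Cy5 for arrays 1 and 3 but with Cy3 for arrays 2 and 4. No label ties an array to a gilt or states that its RNAs shared 1 animal, and the p-values cover array-to-array spread only, which can be technical in part. An explant is cut off from the blood that delivers steroids to the uterus in the animal.

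Steroid synthesis starts when STAR moves cholesterol into the mitochondrion and CYP11A1 cuts its side chain to give pregnenolone, which HSD3B1 turns into progesterone. Conversion enzymes then set how much active hormone a tissue sees: HSD17B1 makes oestradiol from oestrone and HSD17B4 runs the reverse step, while HSD11B1 regenerates cortisol and HSD11B2 inactivates it. SULT1E1 and SULT2A1 attach sulphate to oestrogens and to dehydroepiandrosterone, which blocks receptor binding, and POR passes electrons to the microsomal cytochromes P450. In early pig pregnancy progesterone comes mainly from the corpora lutea and oestrogen from the elongating conceptuses, and the uterus is known chiefly as a target and converter of these hormones.

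The conversion enzymes HSD11B1 and HSD17B4 had the most probes detected in every signal, and of the synthesis genes only HSD3B1 had such a probe. Genes differed in how many probes the array carried: 6 for HSD11B1 and 3 for HSD17B4, but 1 each for HSD17B1, HSD11B2 and SULT1E1. Each probe has 8 signals, 1 per channel on 4 arrays. All 8 were well above background, a mark set by the scanner software, for 11 of the 28 probes: the 6 of HSD11B1, the 3 of HSD17B4, 1 of 2 for HSD3B1 and 1 of 3 for POR. Over the array, 18167 of the 43603 probes had all 8 so marked and could be tested. None of the 8 signals was so for 8 of the 28 member probes, which include the only probes of HSD17B1 and SULT1E1. The remaining 9 were detected in part, more often in Cy5 (68 of 112 signals over all 28 probes) than in Cy3 (52 of 112). Over the whole array the Cy3 channel also detected fewer spots (46.1% to 51%) than the Cy5 channel (54.9% to 63.1%).

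**Figure D1:**
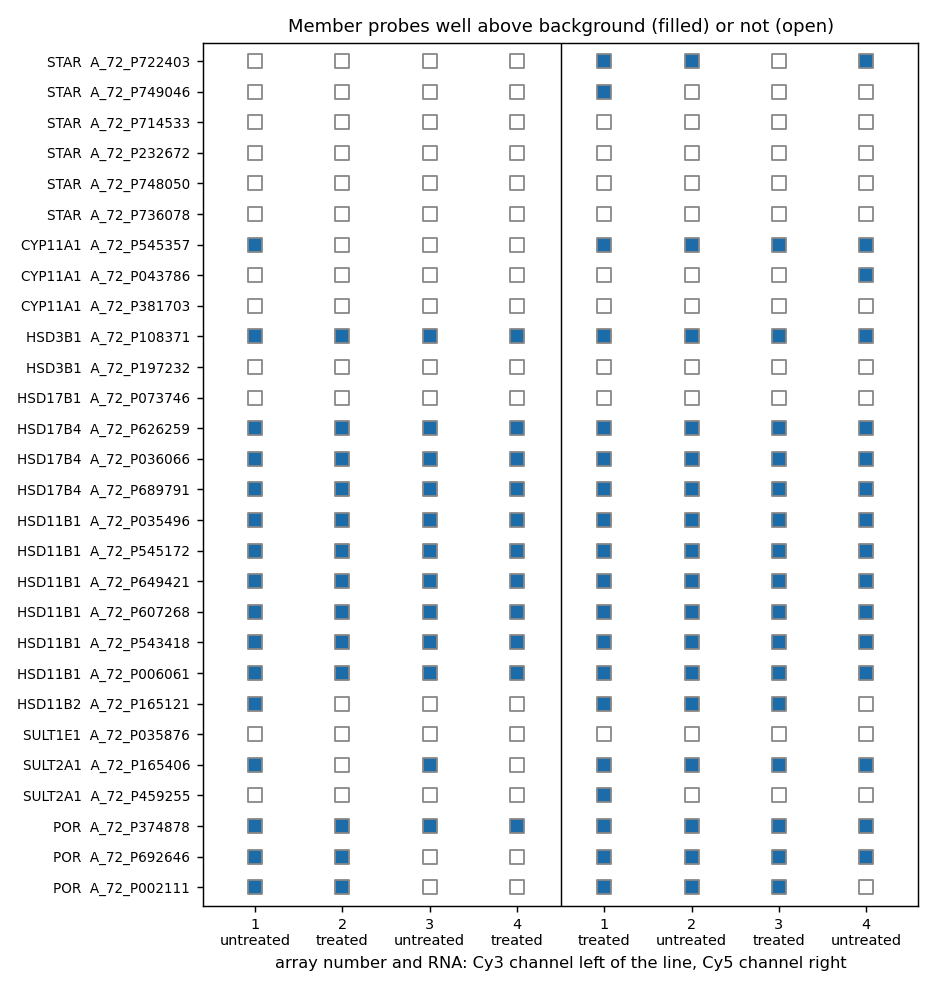
Detection of the 28 probes of the 10 genes (rows) in each channel of the 4 arrays (columns, Cy3 left of the line and Cy5 right of it, with the RNA in that channel). A filled square is a spot well above background; the 6 HSD11B1 and 3 HSD17B4 probes are filled throughout, HSD17B1 and SULT1E1 nowhere, and STAR only in Cy5.

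None of the 6 members that could be tested was called changed by adiponectin. Ratios are log2 of treated over untreated signal, and the fit was limma with a treatment and a dye coefficient over the 22074 probes bright enough to test (on at least 3 of 4 arrays in 1 of the conditions, with a ratio on every array). Of these probes, 15 belonged to 6 members: CYP11A1, HSD3B1, HSD17B4, HSD11B1, SULT2A1 and POR. At a limma adjusted p under 0.05, 0 of the 15 were called, as were 0% of all probes tested. At an unadjusted p under 0.05 there were 2 of the 15, against 5.69% of all probes. These 2, of CYP11A1 and SULT2A1, were bright on at least 3 arrays in the untreated channel but on 2 in the treated one. They passed the filter only where they were high, which favours values below 0. The brightest probe of each gene stood for it: 5 of the 6 genes lay below 0, beside 50.5% of all probes, with a median of -0.23 beside 0.00. That median was -0.05 when the ratios were made by normexp and loess instead, -0.10 without array 4 and -0.35 without array 2. With only probes bright in both channels on all 4 arrays, CYP11A1 and SULT2A1 dropped out. The median of the 4 genes left was -0.12, and their smallest unadjusted limma p was 0.164, for HSD11B1. The median 95% interval of a probe reached 0.39 to either side on the log2 scale, a fold of 1.31. Without array 3, limma called 12 probes of the array, 0 of them a member's. In tissue RNA, fewer cells of a type and less RNA per cell cannot be told apart.

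**Figure D2:**
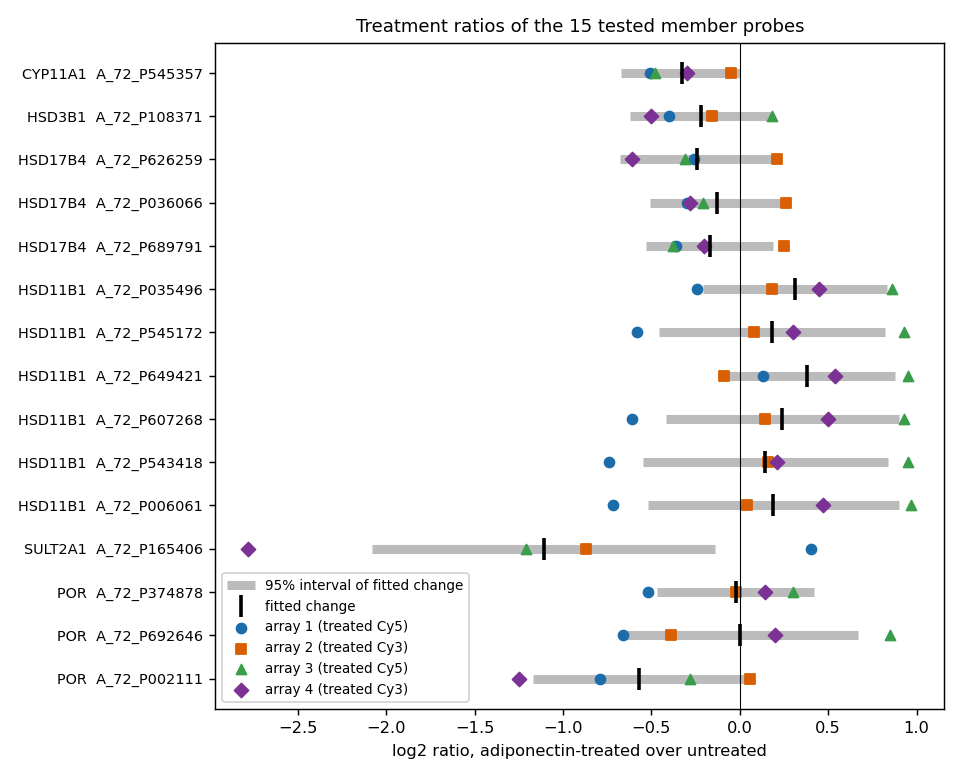
Log2 ratio of treated over untreated signal (horizontal axis) of the 15 tested probes (rows) on each of the 4 arrays (symbols), with the fitted change (black bar) and its 95% interval (grey). All 6 HSD11B1 probes have array 3 highest, at 0.86 to 0.97, and array 4 next, and the 3 HSD17B4 probes lie below 0 on all arrays but array 2.

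STAR, the gene of the cholesterol carrier, was close to background. On its brightest probe the untreated signals were 26.2, 31.1, 15.8 and 40.2 units of processed intensity on arrays 1 to 4, and the treated signals were 23.0, 31.8, 15.4 and 25.0. The groups overlapped, and of these 8 signals 3 were well above background, each in Cy5. Another STAR probe was so in 1 signal and the other 4 probes in none, so STAR was not tested. Those 4 had no common pattern. On A_72_P232672 the ratios were 1.23 and 0.52 with treated RNA in Cy5 and -1.64 and -1.50 with it in Cy3. On A_72_P714533 the signs were the opposite, -0.64 and -1.26 in Cy5 and 0.48 and 0.31 in Cy3. A_72_P748050 was above 0 on 4 of 4 arrays, and A_72_P736078 had no ratio on 3 arrays.

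CYP11A1, the side-chain cleavage enzyme, had 1 tested probe of 3. Its untreated signals were 46.4, 32.8, 43.3 and 40.2 on arrays 1 to 4 and its treated signals 32.6, 31.7, 31.0 and 32.6. The highest treated signal (32.6) and the lowest untreated one (32.8) nearly met. The log2 ratios were -0.51, -0.05, -0.48 and -0.30, below 0 on 4 of 4 arrays, a pattern of equal signs shared by 12.6% of all probes tested. The fitted change was -0.33 ± 0.13 (SE, n = 4 arrays), a fold of 0.793, with an unadjusted p of 0.0494 and a limma adjusted p of 0.857. These signals were dim: the spot was well above background on 3 arrays in the untreated and 2 in the treated channel, and with normexp and loess the change was -0.06. The other 2 CYP11A1 probes were well above background in 1 signal and in none.

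HSD3B1, which makes progesterone from pregnenolone, was detected in all 8 signals of 1 probe and in none of the other. Its untreated signals were 74.9, 71.1, 79.6 and 68.9 and its treated signals 56.8, 63.8, 90.2 and 48.6. Treated tissue was lower on arrays 1, 2 and 4 and higher on array 3, so the groups overlapped. The ratios were -0.40, -0.16, 0.18 and -0.50, with a fitted change of -0.22 ± 0.16 (limma adjusted p = 0.878). It was -0.07 without array 1, -0.13 without array 4 and -0.36 without array 3. With normexp and loess the change was -0.04. Scaled to the 75th percentile of its channel, the untreated signal varied by 0.44 (log2) over the 4 arrays. That range was narrower than for most of the 19090 tested probes that were bright in every untreated channel (9.98th percentile). The probe was dim, with untreated levels from -2.45 to -2.01 on this scale.

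HSD17B1, the oestradiol-forming enzyme, was not well above background in any of its 8 signals. Its processed signals ran from 7.92 to 25.8 units, and its ratios were 1.47, -1.70, 0.93 and 0.17. It was not tested, and on 3 of 4 arrays the sign of the ratio followed the dye.

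HSD17B4, the peroxisomal enzyme that oxidises oestradiol and also takes part in fatty acid β-oxidation, was detected in all 8 signals by each of its 3 probes. Untreated signals of the brightest probe were 3490, 1130, 2720 and 3600 units on arrays 1 to 4, and treated signals were 2910, 1310, 2190 and 2360. Treated tissue was lower on arrays 1, 3 and 4 and higher on array 2, where both signals were at their lowest. Its ratios were -0.26, 0.21, -0.31 and -0.61, and the fitted change was -0.24 ± 0.18 (limma adjusted p = 0.871), with a 95% interval from -0.68 to 0.20.

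The other HSD17B4 probes, A_72_P036066 and A_72_P689791, stood at -0.13 and -0.17 and had the same sign as the first on every array. These probes target the same transcript and are not separate replicates. Over the 3 probes the ratio on array 2 lay between 0.21 and 0.26, apart from the other arrays (-0.61 to -0.20). Without array 4 the change of the brightest probe was -0.04, and without array 2 it was -0.45. The scatter left after the fit was near the middle of all tested probes (34.6th to 69.3rd percentile).

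Untreated HSD17B4 signal differed more between arrays than between conditions. Relative to the 75th percentile of its channel, the untreated signal spanned 2.22-fold to 2.81-fold over the 4 arrays, depending on the probe. Arrays 2 and 4, which share the dye for the untreated RNA, differed by the whole of this range, with array 2 lower. Arrays 1 and 3 differed by 1.09-fold to 1.16-fold.

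HSD11B1, which regenerates active cortisol from cortisone, was the member with the most bright probes, 6 of 6. On the brightest, A_72_P035496, untreated signals were 8780, 2510, 3450 and 9080 units on arrays 1 to 4, and treated signals were 7440, 2840, 6240 and 12400. Treated tissue was lower on array 1 and higher on arrays 2, 3 and 4, and the groups overlapped widely because the arrays differed. The ratios were -0.24, 0.18, 0.86 and 0.45, with a fitted change of 0.31 ± 0.21 (SE, n = 4 arrays), a fold of 1.24 and a limma adjusted p of 0.867.

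The 6 HSD11B1 probes gave fitted changes from 0.14 to 0.38, all above 0 (limma adjusted p from 0.857 to 0.950). They share 1 transcript, so this counts as 1 measurement repeated. On array 3 they lay between 0.86 and 0.97 and on array 4 between 0.21 and 0.54. On array 2 they lay between -0.09 and 0.18, and on array 1 between -0.74 and 0.13. A_72_P649421 was the 1 probe above 0 on array 1 (0.13) and the 1 probe below 0 on array 2 (-0.09). Every probe was highest on array 3 and next on array 4, with array 1 lowest for the other 5 and array 2 lowest for A_72_P649421. The scatter left after the fit stood at the 80.9th to 94.8th percentile of all tested probes. For the brightest probe, A_72_P035496, the change was 0.04 without array 3 and 0.58 without array 1. The other 5 probes were not read with an array left out, so their direction without array 3 is not given.

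HSD11B1 levels also differed between arrays, in both conditions. Relative to the 75th percentile of the channel, untreated signal spanned 3.18-fold to 4.13-fold over the 4 arrays, a range at the 88.0th to 94.3rd percentile of the probes bright in every untreated channel. Among untreated RNAs in Cy3, array 1 was 1.71-fold to 3.43-fold above array 3. The treated RNAs of the same arrays, in Cy5, differed by at most 1.08-fold. On array 3, with the high ratio, the untreated signal was lower than on array 1, and the treated signals of these arrays were alike. On the brightest probe the untreated level was 3.13 on array 2 (Cy5) and 3.27 on array 3 (Cy3), with ratios of 0.18 and 0.86. The source of the spread in the ratios was not tested. Among untreated RNAs in Cy5, array 4 was 2.68-fold to 4.14-fold above array 2, and among treated RNAs in Cy3 3.61-fold to 6.36-fold. Array 2 was thus lower than array 4 in both conditions.

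**Figure D3:**
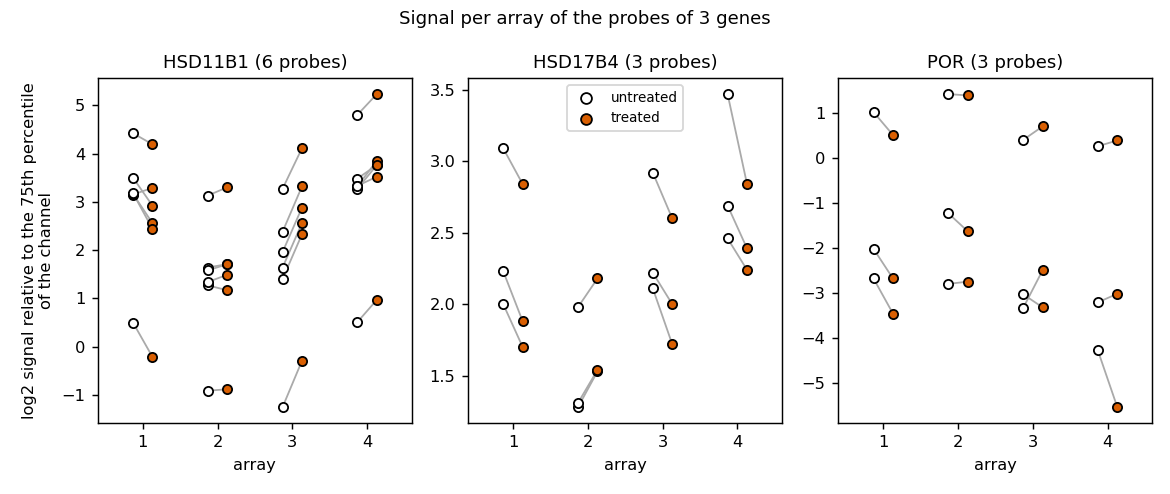
Log2 processed signal relative to the 75th percentile of its channel (vertical axis) of the untreated (open) and treated (filled) RNA on arrays 1 to 4, joined for each probe of HSD11B1, HSD17B4 and POR; vertical scales differ. Against the mean of the other arrays, HSD11B1 and HSD17B4 were lower on array 2 and POR was higher. Untreated signal of the HSD11B1 probe A_72_P006061 was lower still on array 3 (-1.25 against -0.91). Levels are to be read along a probe, not between probes.

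HSD11B2, the opposing enzyme that inactivates cortisol, had 1 probe, well above background on 2 arrays in each condition. Its untreated signals were 110, 27.5, 25.2 and 15.8 units, and its treated signals were 72.3, 18.1, 24.2 and 14.3. Array 1 was highest in both conditions, and treated tissue was lower on 4 of 4 arrays. The ratios were -0.61, -0.60, -0.06 and -0.14, and the probe was too dim to be tested.

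SULT1E1, the oestrogen sulphotransferase, was at background. Its 8 signals lay between 5.18 and 9.69 units, and the scanner gave no ratio on any array.

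SULT2A1, which sulphates dehydroepiandrosterone and bile acids, had the value farthest from 0 of the 6 tested genes. Its untreated signals were 65.3, 51.1, 116 and 52.5 units, and its treated signals were 86.4, 28.0, 50.1 and 7.67. Treated tissue was lower on arrays 2, 3 and 4 and higher on array 1. The ratios were 0.40, -0.87, -1.21 and -2.78, with a fitted change of -1.11 ± 0.39, an unadjusted p of 0.031 and a limma adjusted p of 0.857. On arrays 2 and 4 the treated spot, in Cy3, was not well above background, so the size of those ratios is poorly known. Normexp and loess, which pull dim signals together, gave -0.35. The change was -0.64 without array 4 and -0.71 without array 3. The SE depended on how limma set the scatter of a probe: with a trended robust prior it was 0.84, and the unadjusted limma p was 0.226. Its scatter after the fit was among the widest on the array (98.3rd percentile), its dye coefficient was 0.71, and the other SULT2A1 probe was bright in 1 signal of 8.

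POR, the electron donor of the microsomal P450 enzymes, was near 0. The brightest of its 3 probes had untreated signals of 832, 765, 474 and 390 units on arrays 1 to 4 and treated signals of 581, 754, 584 and 431. Treated tissue was lower on array 1, higher on arrays 3 and 4 and level on array 2. The ratios were -0.52, -0.02, 0.30 and 0.14, and the fitted change was -0.02 ± 0.18 with a 95% interval from -0.47 to 0.42 (limma adjusted p = 0.987). The sign turned when array 1 was left out (0.18). The dimmer probes stood at 0.00 and -0.57 (limma adjusted p = 0.999 and 0.857). That last probe, A_72_P002111, had -1.25 on array 4, where neither signal was well above background. All 3 POR probes had more untreated signal on array 2 than on the mean of the other arrays, by 0.52 to 1.62 (log2). The dimmer probes were not well above background in untreated RNA on array 3, so the size of their difference is poorly known.

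Other genes of steroid metabolism were read from a list of 65. Of these, 33 had a probe with a matching RefSeq accession and 24 were tested. At a limma adjusted p under 0.05, 0 were higher and 0 lower, and 0 had an unadjusted p under 0.05. Fitted changes were above 0 for 10 and below 0 for 14, with a median of -0.02. The untested genes fell in several roles. CYP17A1, which opens the route to androgens, the aromatase copies CYP19A2 and CYP19A3, and NR5A1, the transcription factor that drives steroidogenic genes, were not well above background in any signal of their brightest probe, nor was CYP1A2. CYP21A2, NR0B1, RDH16 and AKR1C1 were so on at most 1 array per condition.

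Mitochondrial partners of CYP11A1 were detected in all 8 signals, with values near 0. FDX1, the ferredoxin that feeds electrons to it, stood at -0.14, and FDXR, its reductase, at -0.02 (limma adjusted p = 0.900 and 0.987). TSPO, a mitochondrial cholesterol-binding protein, stood at 0.01, the sterol carriers STARD3 and STARD4 at -0.11 and -0.01, and the lipoprotein receptor SCARB1 at 0.12. The lysosomal cholesterol exporters NPC1 and NPC2 stood at -0.29 and -0.31. Leaving out 1 array moved NPC1 between -0.56 (array 1) and -0.03 (array 3), and NPC2 between -0.50 (array 3) and -0.12 (array 1). CYB5A, a cofactor of several P450 reactions, stood at -0.20 and was below 0 on 4 of 4 arrays (-0.09, -0.20, -0.11 and -0.38). The membrane progesterone-binding proteins PGRMC1 and PGRMC2 stood at 0.12 and 0.17. Not all probes of a gene shared its sign: they ran from -0.20 to 0.12 for SCARB1 and from -0.30 to 0.17 for PGRMC2.

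Among conversion enzymes, HSD17B7 stood at 0.01, HSD17B8 at -0.03, HSD17B13 at -0.06 and the related HSDL2 at -0.11. CYP19A1, an aromatase whose probe may not separate the pig's near-identical aromatase genes, was detected in all 8 signals and stood at 0.08 ± 0.14, with ratios of 0.22, 0.14, 0.01 and -0.04. SRD5A2, a 5α-reductase, stood at 0.19 with 1.61 on array 1, and at -0.37 without that array and 0.76 without array 3. The aldo-keto reductase AKR1CL1 stood at -0.96 ± 0.51, with ratios of -0.02, 0.46, -2.62 and -1.65 and a change of -0.31 without array 3 and -0.43 without array 4. CBR1, a carbonyl reductase, stood at -0.16 and the sulphotransferase SULT1A3 at -0.09. CYP1A1 stood at 0.13, and leaving out 1 array moved it between -0.41 (array 4) and 0.66 (array 2).

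The steroid-oxidising P450 enzymes CYP3A29 and CYP3A46 had the highest changes of the list, 0.52 ± 0.23 and 0.63 ± 0.29 (limma adjusted p = 0.857 for each). CYP3A29 had ratios of 0.54, -0.37, 1.58 and 0.33, and CYP3A46 of 0.51, -0.37, 2.13 and 0.23. Array 3 was highest and array 2 below 0 for each, and without array 3 the changes were 0.26 and 0.22. Their sequences are close, so their probes may not tell them apart.

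**Figure D4:**
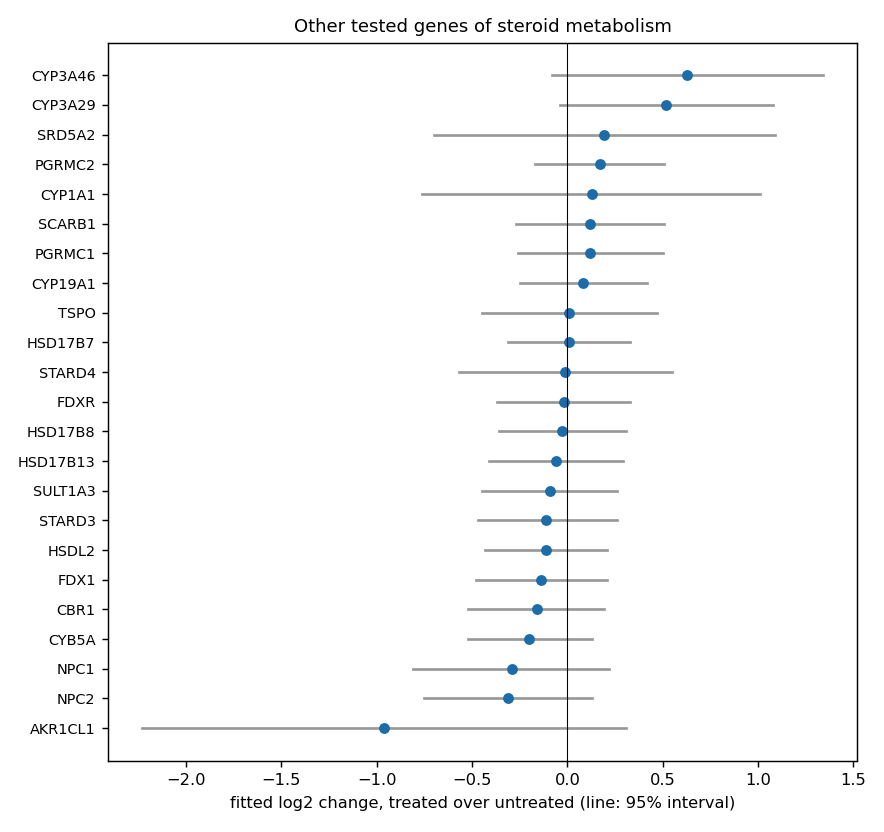
Fitted log2 change of treated over untreated signal (points) with its 95% interval (lines) for the tested genes of the wider list that are named, ordered by value. Each interval includes 0, and the widest belongs to AKR1CL1.

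The tissue label was checked against smooth muscle markers. All 7 with a matching probe, among them ACTA2, DES and CNN1, were well above background in every signal. Markers of endometrial epithelium (7 of 7), macrophages (6 of 6), endothelium (5 of 5) and stroma (3 of 3) were also bright on at least 3 arrays. Of 7 markers of luteal or adrenal steroid-making cells, 1 was tested: LHCGR, the luteinising hormone receptor, at 0.29 with ratios of 0.33, 0.04, 0.12 and 0.66. CYP17A1, NR5A1, FSHR and INSL3 were not well above background in any signal. INHA was so on 2 arrays and CYP21A2 on 1 array in each condition. Of 5 trophoblast markers 0 were tested. IFNG, CGA, CYP19A3 and PAG6 were not well above background in any signal, and GATA3 was so on 2 arrays in each condition.

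The marker lists did not all move alike over the arrays. The median ratio of the smooth muscle markers was -0.66, -0.15, 0.58 and -0.25 on arrays 1 to 4, and of the macrophage markers 0.54, -0.26, 2.16 and 0.76. The median over the HSD11B1 probes was -0.60, 0.11, 0.94 and 0.46, so HSD11B1, smooth muscle and macrophage markers were each highest on array 3. On array 1 the macrophage median was above 0 and the HSD11B1 median below it. Endothelial medians were 0.02, -0.29, 0.07 and 0.07. Stromal medians were 0.15, -0.12, -0.39 and 0.10, lowest on array 3. Epithelial medians were -0.13 and 1.24 on arrays 1 and 2 and -0.70 and 0.69 on arrays 3 and 4, so array 3 was lowest here too. Summed over a list, signal relative to the 75th percentile lay between 754 and 1730 in untreated and between 779 and 1490 in treated RNA for smooth muscle, between 4.50 and 13.3 and between 5.69 and 22.7 for macrophages, and between 2.31 and 12.2 and between 2.02 and 25.7 for epithelium. CYP3A29 and CYP3A46 were below 0 on array 2 alone, as were the macrophage and the endothelial medians. The part of these cell types in the member values was not tested, and 4 arrays are too few for a correlation across samples.

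**Figure D5:**
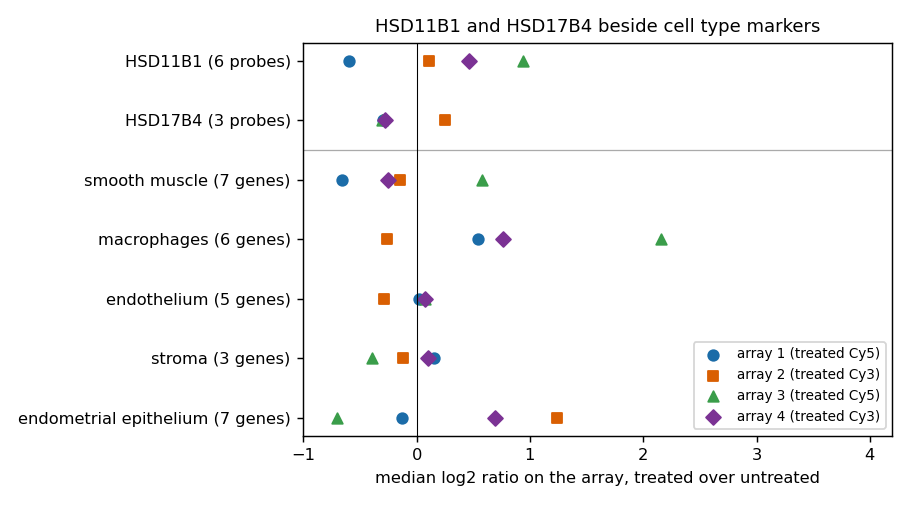
Median log2 ratio of treated over untreated signal (horizontal axis) on each of the 4 arrays (symbols) for the probes of HSD11B1 and HSD17B4 and for the tested markers of 5 cell types. Array 3 is highest for HSD11B1 (0.94), smooth muscle (0.58) and macrophages (2.16). It is lowest for epithelium (-0.70) and stroma (-0.39). HSD17B4 is nearly level on arrays 1, 3 and 4 (-0.30, -0.31 and -0.28).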

How the data were processed

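The deposited scanner files were written by Agilent Feature Extraction 10.7.3.1, per the file headers, and give the intensity of each spot and its background in both channels. Their log10 ratio compares processed Cy5 with Cy3 signal, background-subtracted and dye-normalised by the scanner software per the file headers, and is exactly 0 for 18.1% to 28.9% of the spots of an array. Such a 0 was taken as missing. The deposited series table holds log2 ratios; against the scanner ratios, turned by the dye fields of the labels to treated over untreated, its slope was 1.00 on each array. The text of the labelling protocol names treated RNA in Cy5 only, and the dye fields were followed. Per the file headers, arrays 1 to 3 shared slide 1 and array 4 was on slide 2.

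Ratios were converted to log2 and fitted with limma 3.58.1 in R 4.3.3 (treatment and dye coefficients, eBayes, two-sided, Benjamini-Hochberg over 22074 probes, threshold 0.05). Values after ± are the moderated SE. Ratios of single arrays still hold the dye offset. Spots of a probe were averaged and outlier spots left out; marks on the local background alone were not used. Levels are processed signals, scaled where said to the 75th percentile of the channel. Names came from RefSeq accessions through a table of assembly Sscrofa11.1, which matched 6700 of 7125 such probes. All 10 members and all tested genes of the wider list are named, except 1 of the list that is not reported here and stays in its counts and medians. The members and lists were chosen with earlier results of these data known. The fit was tested on simulated data. The number of arrays limits the precision.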

Additional observations from a re-analysis of the deposited data

Results flagged for a closer look

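Among 27 groups of 4 values, 1 per array, 2 held a value set well apart from the rest, and about 1.35 would be so by chance (1 in 20). For HSD17B4, probe A_72_P036066 gave a log2 ratio of 0.26 on array 2, whereas arrays 1, 3 and 4 ranged from -0.30 to -0.21. For SULT2A1, the untreated log2 signal of probe A_72_P165406, taken relative to the 75th percentile, was -1.63 on array 3, whereas arrays 1, 2 and 4 ranged from -2.65 to -2.49.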

How the results depend on the processing

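Alternatives were normexp and loess (offset 50), median centring, no dye coefficient, no or a stricter filter on dim probes, ratios of 0 kept, a trended robust prior, the deposited series table, the mean of all probes of a gene, each array left out, and slide as a random block without the dye coefficient. The last was chosen after seeing the data, because the block could not be estimated with the dye coefficient. The number of probes called was 0 in each, except that leaving out 1 array gave 0 to 12, the 12 without array 3. The median of the tested members was -0.05 with normexp and loess, -0.12 with the stricter filter, which left 4 genes, and from -0.35 to -0.10 when 1 array was left out. Read on the probe that stood for the gene, or on the mean of its probes, 5 genes kept their direction under every alternative that could be run. These were CYP11A1, HSD3B1, HSD17B4, HSD11B1 and SULT2A1, and the stricter filter left CYP11A1 and SULT2A1 untested. None of them passed. The smallest limma adjusted p, 0.227 for CYP11A1, came from the run with slide as a random block, which was chosen after seeing the data. POR turned from -0.02 to 0.00 with normexp and loess and ranged from -0.23 to 0.18 when 1 array was left out. Signal close to background limits STAR, CYP11A1, HSD11B2 and SULT2A1. The tested HSD3B1 probe was well above background but also dim, and normexp and loess moved it from -0.22 to -0.04. Each ratio already sets a treated against an untreated RNA of the same array, so no further replicate block could be added.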
